A study of Homo sapiens with 16 samples.

Results

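Of 16 RNA-seq libraries that all carry the label HCT116, a human colorectal carcinoma cell line, 3 shared an expression profile that the labels do not explain. They are shCTL_EPZ replicate 1, shNELFE_EPZ replicate 1 and shNELFE_HMBA replicate 1. They were put together because CDH1 and KRT19 were high and VIM was near 0 in all of them although their labels differ in shRNA and in compound. AGR2, a disulphide isomerase of the secretory pathway, was 1473, 1790.2 and 1449 CPM in them and at most 2.76 CPM in any other library, and they are called the AGR2-high libraries here. They were set against 4 libraries numbered replicate 2 that had no HMBA: shCTL_DMSO, shNELFE_DMSO, shCTL_EPZ and shNELFE_EPZ. These are called the 4 replicate 2 libraries.

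In this study cells with a control shRNA (shCTL) were set beside cells with an shRNA that targets NELFE (shNELFE), a subunit of the negative elongation factor that holds RNA polymerase II near promoters. Either kind received DMSO, EPZ-5676, HMBA or both compounds. EPZ-5676 inhibits the histone methyltransferase DOT1L, and HMBA (hexamethylene bisacetamide) is a differentiation inducer that releases the elongation factor P-TEFb. Each of the 8 groups had 2 libraries. Among the AGR2-high libraries, 1 had the control shRNA with EPZ-5676, 1 had the NELFE shRNA with EPZ-5676 and 1 had the NELFE shRNA with HMBA. The 4 replicate 2 libraries hold both shRNA labels, each with DMSO and with EPZ-5676. The labels give colon as the tissue and do not say whether libraries came from separate cultures.

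Because the 3 libraries were grouped by what was measured in them, every difference from the 4 is a description and none was tested. Levels are CPM, read counts per library scaled to a common total. Single values of the AGR2-high libraries are given in the order shCTL_EPZ, shNELFE_EPZ, shNELFE_HMBA, and those of the 4 replicate 2 libraries in the order shCTL_DMSO, shNELFE_DMSO, shCTL_EPZ, shNELFE_EPZ. Means stand with their SD (n = 3 AGR2-high libraries, n = 4 replicate 2 libraries). These are bulk libraries, in which fewer cells of a type and less RNA per cell cannot be told apart.

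E-cadherin, the product of CDH1, joins epithelial cells at adherens junctions, and keratins such as KRT8, KRT18 and KRT19 form the intermediate filaments of simple epithelia. Vimentin is the intermediate filament of mesenchymal cells. GATA3, FOXA1 and the oestrogen receptor ESR1 are transcription factors known to act together in luminal cells of the mammary gland, and CDX2 is a homeobox regulator of intestinal identity.

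Total counts were 19996043 to 21319666 in the AGR2-high libraries and 13428893 to 15804336 in the 4 replicate 2 libraries. The part of this depth difference in the results was not tested. Mitochondrial genes took 8.01% to 8.96% of counts in the AGR2-high libraries and 6.12% to 6.90% in the 4 replicate 2 libraries, and the part of that share was not tested either. The number of genes at 1 CPM or more was 13070 to 13146 in the AGR2-high libraries and 13098 to 13136 in the 4 replicate 2 libraries. A count of 0 allows up to 3 counts in a library, which is 0.148 to 0.159 CPM in the AGR2-high libraries and 0.170 to 0.195 CPM in the 4 replicate 2 libraries. Such floors and the intervals given below cover counting error only.

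CDH1 was 1574, 1591 and 1448 CPM in the AGR2-high libraries and 97.9, 84.3, 101 and 77.96 CPM in the 4 replicate 2 libraries. The groups did not overlap, and the mean was 17.02-fold higher in the AGR2-high libraries. KRT19 was 4562, 3663 and 3687 CPM in the AGR2-high libraries and 1109.6, 909.7, 1077 and 996 CPM in the 4 replicate 2 libraries, a 3.88-fold higher mean. VIM was 0.106, 0.397 and 0.346 CPM in the AGR2-high libraries and 3.09, 4.02, 2.86 and 4.55 CPM in the 4 replicate 2 libraries. Vimentin was thus low in both groups and 12.8-fold lower in the AGR2-high libraries. These 3 genes chose the libraries and carry no further evidence about them. CDH1 lies on chromosome 16, 68737225 to 68835548, KRT19 on chromosome 17, 41523617 to 41528308 and VIM on chromosome 10, 17228259 to 17237593 of hg38.

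**Figure D1:**
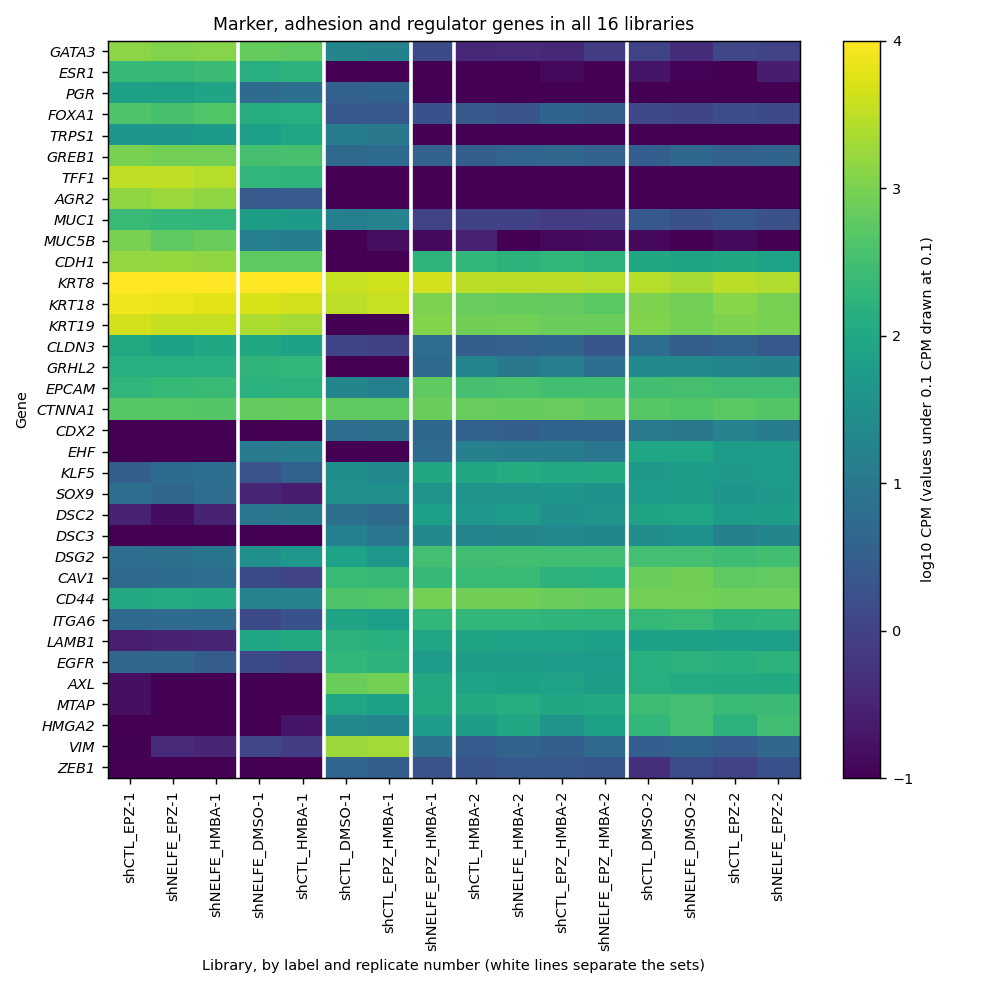
Level of lineage, adhesion and regulator genes (rows) in all 16 libraries (columns), as log10 CPM by colour, with values under 0.1 CPM drawn at 0.1. The 3 AGR2-high libraries are the leftmost columns; TFF1, AGR2 and MUC5B are brightest there, and CDX2, EHF, DSC3 and HMGA2 are at the bottom of the scale.

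Across the genome, 13770 genes had a mean of at least 1 CPM over the 7 libraries. A ratio of means of at least 4 with no overlap between single libraries was found for 3939 genes, or 28.6% of them. In the AGR2-high libraries 1729 genes were higher (12.6%) and 2210 were lower (16%) by that measure. Values without overlap, whatever the fold, ran higher for 41.5% of genes and lower for 41.4%, and the median log2 ratio of all genes was 0.00. That median depends on how the libraries were scaled, and with unscaled totals it was -0.26. The log2 ratios of the genes just inside and just outside the limit were 2.00015 and 1.99999, so the limit cuts a continuous range. The median coefficient of variation of a gene was 10.8% among the AGR2-high libraries and 9.69% among the 4 replicate 2 libraries.

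A stricter class was on or off. With at least 5 CPM in each AGR2-high library and at most 3 counts in each of the 4 replicate 2 libraries, 262 genes (1.9%) were present only in the AGR2-high libraries of these 7, and 234 of them were protein-coding. With the limits turned round, 212 genes (1.54%) were present only in the 4 replicate 2 libraries, 181 of them protein-coding. These genes passed the 1 CPM filter through the group in which they are present. The counts per gene list below cover genes that passed this filter, some of them only through the group where they are high, so they describe the list and are to be read beside the 12.6% higher and 16% lower of all genes.

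**Figure D2:**
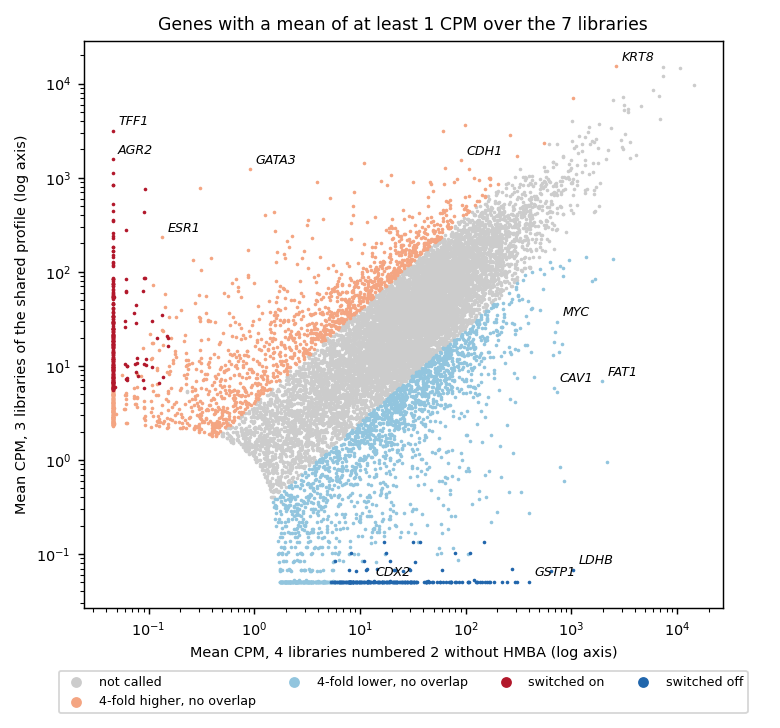
Mean CPM per gene in the 3 AGR2-high libraries (vertical, log axis) against the 4 replicate 2 libraries (horizontal, log axis), for 13770 genes, with means under 3 counts over a group drawn at that floor. Dark red marks the 262 genes present only in the AGR2-high libraries and dark blue the 212 present only in the 4 replicate 2 libraries; TFF1 and AGR2 stand on the left edge, GSTP1 and LDHB along the bottom.

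Of the protein-coding genes present only in the AGR2-high libraries, TFF1 had the highest level. TFF1, a trefoil peptide secreted onto mucosal surfaces, was 3296, 3364 and 2830.1 CPM in the AGR2-high libraries and 0 CPM in each of the 4 replicate 2 libraries. AGR2 was 1473, 1790.2 and 1449 CPM in the AGR2-high libraries and 0 CPM in each of the 4 replicate 2 libraries. Both were present only in the AGR2-high libraries of the 7, at least 69193-fold higher for TFF1 and at least 34358-fold for AGR2 against a floor of 3 counts over the 4 replicate 2 libraries. MUC5B, a gel-forming mucin, was 979, 568 and 732 CPM in the AGR2-high libraries and summed to 6 counts in the 4 replicate 2 libraries. The adenylyl cyclase ADCY1 was 1037 to 1254 CPM, the GDNF family receptor GFRA1 792 to 862 CPM, the calcium channel subunit CACNG4 465 to 588 CPM and the IGF-binding protein IGFBP4 398 to 515 CPM in the AGR2-high libraries. These 4 genes had 0 counts in all 4 replicate 2 libraries. Among the other leading genes of this kind were the gluconeogenic enzyme FBP1 at 437 ± 27.7 CPM, the epithelial transcription factor SPDEF at 347 ± 59.03 CPM, the T-box factor TBX2 at 278 ± 41.4 CPM, the receptor accessory protein RAMP3 at 261 ± 25.9 CPM and the thioredoxin inhibitor TXNIP at 231 ± 18.9 CPM in the AGR2-high libraries. In the 4 replicate 2 libraries FBP1 summed to 6 counts, SPDEF to 3 and TBX2 to 4, while RAMP3 and TXNIP had 0. The remaining 3 of the 15 highest were GSTM3 at 356 ± 39.8 CPM, SELENBP1 at 243 ± 15.8 CPM and CBS at 184 ± 18.6 CPM in the AGR2-high libraries, with 0, 0 and 1 counts in the 4 replicate 2 libraries.

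LDHB had the highest level among the protein-coding genes that the AGR2-high libraries lacked. LDHB, a lactate dehydrogenase subunit, was 0.106, 0.0993 and 0 CPM in the AGR2-high libraries and 985, 1168, 998 and 1039 CPM in the 4 replicate 2 libraries. The EGF receptor ligand EREG was 0, 0.0497 and 0.148 CPM in the AGR2-high libraries and 727, 869, 433 and 544 CPM in the 4 replicate 2 libraries. GSTP1, a glutathione transferase, was 0 CPM in each of the AGR2-high libraries and 386, 356, 442 and 404 CPM in the 4 replicate 2 libraries. For these genes the AGR2-high libraries held 4, 4 and 0 counts in all. Moesin (MSN), which links actin to the membrane, had 0 counts in the AGR2-high libraries and 274 to 315 CPM in the 4 replicate 2 libraries. The transmembrane protein gene CDCP1 had 1 count in the AGR2-high libraries and 249 to 362 CPM in the 4 replicate 2 libraries. The actin-binding genes FLNC and CNN3 had 1 and 1 counts in the AGR2-high libraries, against 142 to 168 CPM for FLNC and 133 to 151 CPM for CNN3 in the 4 replicate 2 libraries. The serine synthesis enzyme PSAT1 had 1 count in the AGR2-high libraries and 129.9 to 190.5 CPM in the 4 replicate 2 libraries. ACSL5, ADGRF1, PDE4B and GDA had 0 counts in every AGR2-high library, and their means in the 4 replicate 2 libraries were 220.0 ± 35.3, 186 ± 17.01, 169 ± 45.1 and 138 ± 34.3 CPM. HS3ST1 summed to 8 counts in the AGR2-high libraries and averaged 150.3 ± 8.97 CPM in the 4 replicate 2 libraries.

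Epithelial genes were present in both groups. Of 30 genes of epithelial cells, all of which passed the 1 CPM filter, 9 were at least 4-fold higher in the AGR2-high libraries (12.6% of all genes were) and 1 was at least 4-fold lower (16% of all genes). CDH1 and KRT19, which chose the libraries, are in this list. Without them 8 of 28 were at least 4-fold higher and 1 lower, with a median log2 ratio of 1.33, beside 0.00 for all genes. CLDN3, a claudin of tight junctions, was 111, 68.7 and 96.6 CPM in the AGR2-high libraries and 6.36, 3.23, 3.96 and 2.397 CPM in the 4 replicate 2 libraries. GRHL2, a transcription factor that maintains epithelial identity, was 134, 138 and 141 CPM in the AGR2-high libraries and 24.2, 22.2, 17.8 and 15.4 CPM in the 4 replicate 2 libraries. EPCAM, an epithelial cell adhesion molecule, went the other way with 193, 226 and 235 CPM in the AGR2-high libraries and 305, 334, 299 and 292 CPM in the 4 replicate 2 libraries. That difference was small, 1.41-fold lower in the AGR2-high libraries, but the groups did not overlap. The membrane protease PRSS8 was 200.1 to 259 CPM in the AGR2-high libraries and 14.4 to 26.5 CPM in the 4 replicate 2 libraries. The ETS factor EHF, a regulator of epithelial differentiation, was the member at least 4-fold lower, with 0 CPM in each of the AGR2-high libraries and 86.2, 85.9, 59.05 and 58.7 CPM in the 4 replicate 2 libraries. EHF was at least 1431-fold lower in the AGR2-high libraries. ST14, LSR, CLDN7 and CLDN4 were within 2-fold between the groups.

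Among the keratins, 15 of 52 listed genes passed the filter, of which 6 were at least 4-fold higher and 4 lower in the AGR2-high libraries. KRT8 was 17321, 14468 and 13875 CPM in the AGR2-high libraries and 2812, 2229, 3025 and 2580.4 CPM in the 4 replicate 2 libraries. Its partner KRT18 was 7819, 7042 and 6115 CPM in the AGR2-high libraries and 1086, 845, 1269 and 932 CPM in the 4 replicate 2 libraries. Per kilobase of exon, mean KRT8 (2212 CPM per kb), KRT18 (2173) and KRT19 (1699.7) were the most abundant of the keratins named here in the AGR2-high libraries. The same 3 were highest in the 4 replicate 2 libraries, at 387, 321 and 438 CPM per kb. KRT23, an acidic keratin, was 0.477, 0.646 and 0.297 CPM in the AGR2-high libraries and 146, 145, 122 and 123 CPM in the 4 replicate 2 libraries. KRT20, a keratin of intestinal epithelium, averaged 0.183 ± 0.123 CPM in the AGR2-high libraries and 3.52 ± 1.06 CPM in the 4 replicate 2 libraries. KRT13, a keratin of stratified epithelium, averaged 18.03 ± 1.20 CPM in the AGR2-high libraries and 1.05 ± 0.736 CPM in the 4 replicate 2 libraries. KRT81 and KRT83, hair keratins of near-identical sequence whose reads may be split between them, were 10.6 and 3.95 CPM in the AGR2-high libraries and 0.830 and 0.222 CPM in the 4 replicate 2 libraries. The basal keratin KRT5 had 0 counts in the AGR2-high libraries and 2 counts in the 4 replicate 2 libraries. KRT17, which is also in the squamous and basal list, had the largest fold of the 6 keratins that were higher in the AGR2-high libraries.

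Of 34 mesenchymal genes 17 passed the filter, with 3 at least 4-fold higher and 8 lower in the AGR2-high libraries. VIM, which chose the libraries, is among the 8, and without it 7 of 16 were lower and the median log2 ratio was -0.93. The summed level of the list was 225 to 271 CPM in the AGR2-high libraries and 1034 to 1272 CPM in the 4 replicate 2 libraries. Caveolin 1 (CAV1), the coat protein of membrane caveolae, was 5.45, 5.66 and 6.53 CPM in the AGR2-high libraries and 706, 829, 567 and 631 CPM in the 4 replicate 2 libraries. The calcium-binding protein gene S100A4 was 2.49, 1.44 and 1.63 CPM in the AGR2-high libraries and 203, 125, 226 and 149 CPM in the 4 replicate 2 libraries. Both genes were thus far lower in the AGR2-high libraries, 116-fold for CAV1 and 94.9-fold for S100A4. The CDH1 repressors ZEB1, SNAI2 and ZEB2 were low in both groups. ZEB1 summed to 2 counts in the AGR2-high libraries and 78 counts in the 4 replicate 2 libraries, SNAI2 to 2 and 55, and ZEB2 to 0 and 2. SNAI1, another repressor of CDH1, averaged 1.35 ± 0.415 CPM in the AGR2-high libraries and 8.56 ± 1.19 CPM in the 4 replicate 2 libraries. It was thus at least 4-fold lower in the AGR2-high libraries. Some matrix genes were higher in the AGR2-high libraries instead. The fibrillar collagen COL5A1 was 23.9 to 32.8 CPM and the matrix protein TGFBI 49.6 to 58.8 CPM in the AGR2-high libraries, against 0 to 0.0630 CPM for COL5A1 and 0.0630 to 0.539 CPM for TGFBI in the 4 replicate 2 libraries.

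Of 56 desmosomal and other cadherin genes 19 passed the filter, and 7 were at least 4-fold higher and 5 lower in the AGR2-high libraries. CDH1 is among the 7, and without it 6 of 18 were higher. Desmocollin 2 (DSC2), a desmosomal cadherin, was 0.318, 0.149 and 0.297 CPM in the AGR2-high libraries and 83.6, 90.6, 57.2 and 61.9 CPM in the 4 replicate 2 libraries. Desmocollin 3 (DSC3) was 0 CPM in each of the AGR2-high libraries and 29.2, 36.1, 15.3 and 19.1 CPM in the 4 replicate 2 libraries. Desmoglein 2 (DSG2), the partner of desmocollins in simple epithelia, was 6.51, 7.003 and 8.95 CPM in the AGR2-high libraries and 322, 323, 283 and 303 CPM in the 4 replicate 2 libraries. All 3 desmosomal cadherins were thus lower, 288-fold for DSC2, at least 492-fold for DSC3 and 41.1-fold for DSG2. Desmoplakin (DSP), which ties desmosomes to keratin, was 305, 312 and 327 CPM in the AGR2-high libraries and 268, 258, 245 and 249 CPM in the 4 replicate 2 libraries. The plakophilins of the desmosomal plaque differed in opposite directions. Plakophilin 1 (PKP1) averaged 57.9 ± 8.02 CPM in the AGR2-high libraries and 0.144 ± 0.172 CPM in the 4 replicate 2 libraries, and plakophilin 2 (PKP2) averaged 6.94 ± 0.750 CPM in the AGR2-high libraries and 39.5 ± 5.39 CPM in the 4 replicate 2 libraries.

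The giant protocadherin FAT1 was 7.73, 7.55 and 5.29 CPM in the AGR2-high libraries and 2016, 2114, 1621 and 2096 CPM in the 4 replicate 2 libraries, 286-fold lower in the AGR2-high libraries. Protocadherin 10 (PCDH10) showed the opposite, with 195, 175 and 177 CPM in the AGR2-high libraries and 0 CPM in each of the 4 replicate 2 libraries. The planar polarity cadherin CELSR2 was 1007, 733 and 793 CPM in the AGR2-high libraries and 22.3, 15.96, 17.3 and 16.5 CPM in the 4 replicate 2 libraries. P-cadherin (CDH3) and protocadherin 7 (PCDH7) were within 2-fold, at 92.1 ± 11.2 and 128 ± 6.08 CPM in the AGR2-high libraries and 173 ± 30.1 and 125 ± 29.5 CPM in the 4 replicate 2 libraries. Among the catenins, alpha-catenin (CTNNA1), which links the cadherin complex to actin, was 497, 506 and 459.9 CPM in the AGR2-high libraries and 502, 447, 518 and 468 CPM in the 4 replicate 2 libraries, and these values overlapped. Delta-catenin 2 (CTNND2) was 29.5 to 30.8 CPM in the AGR2-high libraries and summed to 2 counts in the 4 replicate 2 libraries. Vinculin (VCL), an actin linker of junctions and focal adhesions, averaged 65.98 ± 6.06 CPM in the AGR2-high libraries and 544 ± 156 CPM in the 4 replicate 2 libraries. In the list of 16 junction plaque genes, 14 passed the filter, 2 were at least 4-fold higher and 2 lower in the AGR2-high libraries, which is 14.3% each way and near the 12.6% and 16% of all genes.

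Tight and gap junction genes numbered 24 past the filter out of 44, with 3 at least 4-fold higher (12.5%, beside 12.6% of all genes) and 5 lower (20.8%, beside 16%) in the AGR2-high libraries. Connexin GJC1 summed to 3 counts in the AGR2-high libraries and averaged 44.4 ± 15.4 CPM in the 4 replicate 2 libraries. CLDN9, another claudin, was 15.4 to 25.9 CPM in the AGR2-high libraries and 1.26 to 3.27 CPM in the 4 replicate 2 libraries. Claudin 7 overlapped between the groups, with CLDN7 at 135, 115 and 115 CPM in the AGR2-high libraries and 156, 113, 149.5 and 108 CPM in the 4 replicate 2 libraries.

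Integrins, the receptors for extracellular matrix, showed no member at least 4-fold higher. Of 26 listed genes 12 passed the filter and 6 were at least 4-fold lower in the AGR2-high libraries, with a median log2 ratio of -1.66. ITGA6, the laminin-binding chain that pairs with ITGB4 in hemidesmosomes, was 5.14, 5.66 and 5.69 CPM in the AGR2-high libraries and 219, 250.3, 174 and 191 CPM in the 4 replicate 2 libraries. ITGB4 itself was 1091, 739 and 817 CPM in the AGR2-high libraries and 486, 373, 505 and 456 CPM in the 4 replicate 2 libraries. The 2 chains of that receptor therefore differed in opposite directions, with ITGA6 37.9-fold lower and ITGB4 1.94-fold higher in the AGR2-high libraries. The common beta chain ITGB1 was 90.2, 109.9 and 126 CPM in the AGR2-high libraries and 726, 666, 649 and 595 CPM in the 4 replicate 2 libraries. The collagen receptor chain ITGA2 averaged 5.32 ± 0.475 CPM in the AGR2-high libraries and 111 ± 36.5 CPM in the 4 replicate 2 libraries. ITGB8 averaged 0.304 ± 0.198 CPM in the AGR2-high libraries and 19.4 ± 8.42 CPM in the 4 replicate 2 libraries.

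Basement membrane genes had 10 members at least 4-fold lower and 1 higher among 18 that passed the filter of 24 listed, and their median log2 ratio was -2.399. Laminin beta 1 (LAMB1) was 0.265, 0.298 and 0.346 CPM in the AGR2-high libraries and 71.4, 70.3, 65.4 and 65.3 CPM in the 4 replicate 2 libraries. LAMA2, a laminin alpha chain, was 0 CPM in each of the AGR2-high libraries and 30.99, 38.2, 21.5 and 29.7 CPM in the 4 replicate 2 libraries. LAMB3, another laminin beta chain, averaged 5.19 ± 0.474 CPM in the AGR2-high libraries and 102 ± 21.7 CPM in the 4 replicate 2 libraries. These 3 laminin chains were lower in the AGR2-high libraries, but LAMA5 and LAMC1 were within 2-fold. LAMA5 averaged 404 ± 96.1 CPM and LAMC1 107 ± 2.62 CPM in the AGR2-high libraries, against 252 ± 48.03 CPM for LAMA5 and 168 ± 21.1 CPM for LAMC1 in the 4 replicate 2 libraries. The proteoglycan agrin (AGRN) was the member that was higher, at 593, 372 and 468 CPM in the AGR2-high libraries and 70.03, 61.2, 78.6 and 72.6 CPM in the 4 replicate 2 libraries.

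Other adhesion molecules of the cell surface had 10 members at least 4-fold higher and 4 lower among 22 that passed of 29. CD44, the hyaluronan receptor, was 106, 118 and 105 CPM in the AGR2-high libraries and 865, 869.7, 788 and 803 CPM in the 4 replicate 2 libraries. The cell adhesion gene NRCAM was 51.4, 59.6 and 71.8 CPM in the AGR2-high libraries and summed to 2 counts in the 4 replicate 2 libraries. CEACAM5 and CEACAM6, closely related members of the carcinoembryonic antigen family, had 0 counts in the 4 replicate 2 libraries. In the AGR2-high libraries CEACAM5 was 32.8, 35.3 and 34.2 CPM and CEACAM6 was 41.9 to 47.4 CPM. MCAM, an adhesion molecule of the immunoglobulin family, summed to 3 counts in the AGR2-high libraries and averaged 31.8 ± 2.32 CPM in the 4 replicate 2 libraries. PROM1, a protein of membrane protrusions, summed to 2 counts in the AGR2-high libraries and averaged 21.8 ± 3.07 CPM in the 4 replicate 2 libraries.

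**Figure D3:**
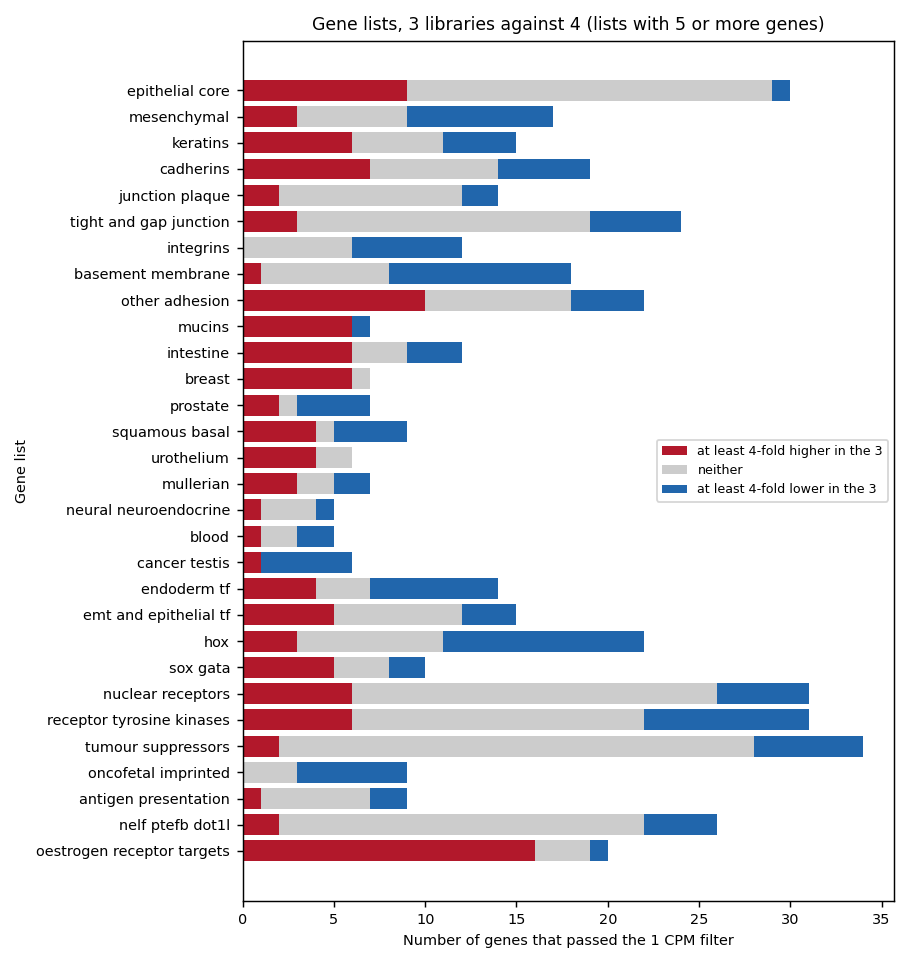
Number of genes per list (horizontal) that were at least 4-fold higher without overlap (red), at least 4-fold lower without overlap (blue) or neither (grey) in the 3 AGR2-high libraries against the 4 replicate 2 libraries, for gene lists that each have 5 or more genes past the 1 CPM filter. Integrins have 6 lower and 0 higher, mucins 6 higher and 1 lower, and oestrogen receptor targets 16 higher and 1 lower. The list of oestrogen receptor targets was drawn up after these values had been seen, and some mucins passed the filter only through the AGR2-high libraries. Of all genes 12.6% were higher and 16% lower by this measure.

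GATA3, ESR1, FOXA1, PGR and TRPS1 were present in the AGR2-high libraries and at or near 0 in the 4 replicate 2 libraries. GATA3 was 1327, 1133 and 1262 CPM in the AGR2-high libraries and 1.01, 0.453, 1.17 and 1.02 CPM in the 4 replicate 2 libraries. ESR1 was 222, 217 and 259 CPM in the AGR2-high libraries and 0.189, 0.113, 0 and 0.240 CPM in the 4 replicate 2 libraries, where its counts summed to 9. The pioneer factor FOXA1 was 416, 356 and 447 CPM in the AGR2-high libraries and 1.20, 1.13, 1.49 and 1.26 CPM in the 4 replicate 2 libraries. These 3 regulators did not overlap between the groups, with means 1360.2-fold higher for GATA3, 1717-fold for ESR1 and 320.0-fold for FOXA1. The progesterone receptor PGR was 72.4, 69.98 and 84.5 CPM in the AGR2-high libraries and 0 CPM in each of the 4 replicate 2 libraries. The repressor TRPS1 was 41.9, 43.4 and 52.1 CPM in the AGR2-high libraries and 0 CPM in each of the 4 replicate 2 libraries. TFAP2C, an AP-2 factor, was 226, 233 and 212 CPM in the AGR2-high libraries and 11.9, 7.08, 8.90 and 5.09 CPM in the 4 replicate 2 libraries, and its relative TFAP2A averaged 5.72 ± 0.704 CPM in the AGR2-high libraries and 11.9 ± 1.93 CPM in the 4 replicate 2 libraries.

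In the list of 16 breast genes 7 passed the filter, with 6 at least 4-fold higher and 0 lower by that measure in the AGR2-high libraries. Genes such as ESR1, PGR and TRPS1 passed only through the AGR2-high libraries, and over the whole list 9 genes had more than 3 counts in an AGR2-high library and 7 in one of the 4 replicate 2 libraries. Other members of the list were at or near 0 in both groups. SCGB2A2, PIP, ANKRD30A and TFAP2B had 0 counts in all 7 libraries, and AZGP1 was 0.348 to 0.530 CPM in the AGR2-high libraries and 0.113 to 0.479 CPM in the 4 replicate 2 libraries. Among 31 nuclear receptors past the filter of 48, 6 were at least 4-fold higher (19.4%, beside 12.6% of all genes) and 5 lower (16.1%, beside 16%). The retinoid X receptor RXRA averaged 379 ± 48.2 CPM in the AGR2-high libraries and 30.9 ± 5.02 CPM in the 4 replicate 2 libraries. The thyroid hormone receptor THRB averaged 27.5 ± 2.39 CPM in the AGR2-high libraries and 0.957 ± 0.0797 CPM in the 4 replicate 2 libraries. NR2F1, an orphan receptor, was the largest difference the other way, at 0.106, 0.149 and 0.0494 CPM in the AGR2-high libraries and 91.2, 119.7, 44.3 and 62.7 CPM in the 4 replicate 2 libraries.

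A list of 20 genes known to respond to the oestrogen receptor was drawn up after these values had been seen, so its count is a description of chosen genes. All 20 passed the filter, 16 were at least 4-fold higher and 1 was lower in the AGR2-high libraries, and the median log2 ratio was 4.37. The co-activator GREB1 was 1005, 852 and 845 CPM in the AGR2-high libraries and 3.09, 4.76, 3.64 and 4.13 CPM in the 4 replicate 2 libraries. XBP1, a regulator of the secretory pathway, was 3268, 3369 and 2843 CPM in the AGR2-high libraries and 76.3, 48.01, 71.8 and 46.3 CPM in the 4 replicate 2 libraries. The lysosomal protease CTSD was 4344, 3226 and 3336 CPM in the AGR2-high libraries and 109, 85.3, 104 and 93.002 CPM in the 4 replicate 2 libraries. The chemokine CXCL12 was 7.02 to 8.20 CPM in the AGR2-high libraries with 0 counts in the 4 replicate 2 libraries. AREG, an EGF receptor ligand, was the member that was lower, averaging 5.99 ± 0.262 CPM in the AGR2-high libraries and 118 ± 6.04 CPM in the 4 replicate 2 libraries. The G1 cyclin CCND1 overlapped between the groups, with 681, 624 and 638 CPM in the AGR2-high libraries and 688, 805, 645 and 814 CPM in the 4 replicate 2 libraries.

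Intestinal genes gave a mixed account against the colon label. CDX2 was 0 CPM in each of the AGR2-high libraries and 10.9, 10.1, 16.2 and 13.004 CPM in the 4 replicate 2 libraries, at least 248-fold lower. Of 40 intestinal genes 12 passed the filter, and 6 were at least 4-fold higher and 3 lower in the AGR2-high libraries. The members that were higher included CEACAM5, the trefoil peptide TFF3 at 16.7 to 24.04 CPM, the stem cell factor ASCL2 at 15.9 to 19.7 CPM and the carbonic anhydrase CA4 at 8.94 to 9.32 CPM in the AGR2-high libraries, all with 0 counts in the 4 replicate 2 libraries. Several genes known from gut epithelium were near 0 in both groups. CDH17 summed to 1 count in the AGR2-high libraries and 4 counts in the 4 replicate 2 libraries, LGR5 to 0 and 3, GPA33 to 0 and 10, and HNF4A to 3 and 18. CDX2, KRT20 and HNF4G were the 3 members that were lower, so the intestinal regulator that the 4 replicate 2 libraries had was at 0 in the AGR2-high libraries.

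Of 19 mucin genes 7 passed the filter, with 6 at least 4-fold higher and 1 lower in the AGR2-high libraries. Members such as MUC5B and MUC5AC passed only through the AGR2-high libraries, and over the whole list 9 genes had more than 3 counts in an AGR2-high library and 9 in one of the 4 replicate 2 libraries. MUC1, a transmembrane mucin, was 235, 205 and 196 CPM in the AGR2-high libraries and 2.33, 1.75, 2.34 and 1.74 CPM in the 4 replicate 2 libraries. The gastric mucin MUC5AC was 58.5, 33.9 and 45.7 CPM in the AGR2-high libraries and summed to 1 count in the 4 replicate 2 libraries. MUC3A, an intestinal membrane mucin, was 0.265, 0.248 and 0.297 CPM in the AGR2-high libraries and 12.4, 8.21, 12.5 and 8.69 CPM in the 4 replicate 2 libraries, and was the member that was lower.

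Markers of other tissues were present in part. In the prostate list the membrane protease TMPRSS2 was 26.8 to 30.9 CPM in the AGR2-high libraries with 0 counts in the 4 replicate 2 libraries, but KLK3 had 0 counts in all 7. HOXB13 averaged 0.590 ± 0.197 CPM in the AGR2-high libraries and 6.03 ± 1.11 CPM in the 4 replicate 2 libraries. In the squamous and basal list 4 of 9 genes past the filter were at least 4-fold higher and 4 lower. The higher ones were SOX2, PKP1, TRIM29 and KRT17, and the lower ones were DSC3, S100A2, SERPINB5 and KRT15. TP63, the regulator of basal cells, summed to 10 counts in the AGR2-high libraries and 2 counts in the 4 replicate 2 libraries. SOX2, a stem cell and foregut factor, was 18.1, 16.7 and 25.3 CPM in the AGR2-high libraries and summed to 1 count in the 4 replicate 2 libraries. In the urothelial list 4 of 6 genes past the filter were at least 4-fold higher and 0 lower, with UPK2 at 4.22 ± 0.316 CPM and UPK3B at 10.6 ± 1.32 CPM in the AGR2-high libraries, against 0.154 ± 0.0838 CPM for UPK2 and 0.316 ± 0.398 CPM for UPK3B in the 4 replicate 2 libraries. Among 7 Müllerian genes past the filter 3 were at least 4-fold higher and 2 lower, and the lower MSLN averaged 0.303 ± 0.0409 CPM in the AGR2-high libraries and 31.7 ± 4.42 CPM in the 4 replicate 2 libraries. Of 5 neural genes past the filter 1 was higher and 1 lower, and of 5 blood genes 1 was higher and 2 lower. The stomach, liver, pancreas, lung, kidney, thyroid, melanocyte, endothelium, muscle and pluripotency lists had at most 4 genes past the filter each.

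Homeobox, SOX and Krüppel-like factors also differed. Of 39 HOX genes 22 passed the filter. Of these, 3 were at least 4-fold higher (13.6%, beside 12.6% of all genes) and 11 lower (50%, beside 16%) in the AGR2-high libraries. HOXA9 was 0, 0 and 0.346 CPM in the AGR2-high libraries and 42.1, 66.3, 52.1 and 61.5 CPM in the 4 replicate 2 libraries. HOXC13 was 22.98, 20.2 and 19.3 CPM in the AGR2-high libraries and 1.70, 2.66, 2.14 and 2.34 CPM in the 4 replicate 2 libraries. The genes that were higher, HOXC11, HOXC13 and HOXC6, all belong to the HOXC cluster, but their share of the list was near that of all genes. Of 25 SOX and GATA genes 10 passed, with 5 at least 4-fold higher and 2 lower. SOX9, a factor of intestinal progenitors, was 6.46, 4.47 and 6.18 CPM in the AGR2-high libraries and 56.997, 64.8, 42.7 and 50.3 CPM in the 4 replicate 2 libraries. SOX3, close in sequence to SOX2, was 22.1, 22.2 and 21.3 CPM in the AGR2-high libraries and 0 CPM in each of the 4 replicate 2 libraries. KLF5, a factor of proliferating crypt cells, averaged 5.22 ± 1.74 CPM in the AGR2-high libraries and 54.5 ± 7.09 CPM in the 4 replicate 2 libraries, and KLF4, a factor of differentiated epithelium, averaged 103 ± 7.12 CPM in the AGR2-high libraries and 11.8 ± 1.58 CPM in the 4 replicate 2 libraries. In the list of endodermal regulators 4 of 14 genes past the filter were at least 4-fold higher and 7 lower, and in that of epithelial and mesenchymal regulators 5 of 15 were higher and 3 lower.

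The stretch of 250 bases before the RefSeq start (GRCh38.p14) is shown for 4 genes, since AGR2 and FOXA1 were present and CDX2 and VIM at or near 0 in the AGR2-high libraries. Both strands were searched for the E-box written CAGGTG, which zinc finger repressors of CDH1 are known to bind. They were also searched for the motif of GATA factors, written AGATAA, and matches of both are in capitals. Sequences read 5′ to 3′ on the strand of the gene. The sequences are RefSeq's. AGR2 is at chr7:16805000-16805249 (minus strand), FOXA1 at chr14:37595250-37595499 (minus), CDX2 at chr13:27969316-27969565 (minus) and VIM at chr10:17227991-17228240 (plus).
AGR2: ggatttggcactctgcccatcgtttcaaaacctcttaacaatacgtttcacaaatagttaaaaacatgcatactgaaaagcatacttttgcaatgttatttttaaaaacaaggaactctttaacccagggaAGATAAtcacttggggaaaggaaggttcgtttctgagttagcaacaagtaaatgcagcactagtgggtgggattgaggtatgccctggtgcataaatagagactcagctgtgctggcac
FOXA1: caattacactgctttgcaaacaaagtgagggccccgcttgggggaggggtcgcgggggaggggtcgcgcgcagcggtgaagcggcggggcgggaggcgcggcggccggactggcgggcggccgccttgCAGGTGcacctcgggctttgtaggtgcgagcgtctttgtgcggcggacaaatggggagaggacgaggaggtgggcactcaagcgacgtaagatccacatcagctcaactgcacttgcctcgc
CDX2: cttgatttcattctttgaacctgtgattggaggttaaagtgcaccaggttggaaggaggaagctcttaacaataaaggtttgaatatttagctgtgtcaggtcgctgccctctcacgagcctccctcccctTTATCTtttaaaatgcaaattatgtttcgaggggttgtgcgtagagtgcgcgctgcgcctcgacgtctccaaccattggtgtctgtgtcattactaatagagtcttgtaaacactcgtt
VIM: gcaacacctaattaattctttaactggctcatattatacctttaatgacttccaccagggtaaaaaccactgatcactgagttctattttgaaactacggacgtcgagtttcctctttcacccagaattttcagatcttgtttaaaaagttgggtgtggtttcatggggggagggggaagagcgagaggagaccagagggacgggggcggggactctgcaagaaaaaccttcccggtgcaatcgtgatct
AGR2 held 1 AGATAA, and CDX2 held 1 on the opposite strand, so that the printed strand of CDX2 reads TTATCT. FOXA1 held 1 CAGGTG, and VIM held neither. Of 35116 RefSeq promoter windows of this length, 17.5% held CAGGTG and 9.17% held AGATAA. A match is a description of these letters, and a window without one says nothing of the factor.

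Of 53 receptor tyrosine kinases, the receptors of growth factors, 31 passed the filter, with 6 at least 4-fold higher (19.4%, beside 12.6% of all genes) and 9 lower (29%, beside 16%) in the AGR2-high libraries. EGFR was 4.45, 4.47 and 3.02 CPM in the AGR2-high libraries and 138, 161, 150.1 and 173 CPM in the 4 replicate 2 libraries. MET, the hepatocyte growth factor receptor, was 16.6, 15.99 and 17.5 CPM in the AGR2-high libraries and 414, 465, 307 and 355 CPM in the 4 replicate 2 libraries. AXL, a receptor for GAS6, summed to 3 counts in the AGR2-high libraries and was 139.5, 118, 116 and 109 CPM in the 4 replicate 2 libraries. These 3 receptors were lower in the AGR2-high libraries, 39.1-fold for EGFR and 23.1-fold for MET. The insulin-like growth factor receptor IGF1R was 380.3, 326 and 316 CPM in the AGR2-high libraries and 10.3, 9.68, 14.4 and 12.6 CPM in the 4 replicate 2 libraries. RET, which signals with GFRA1, was 163, 137 and 129 CPM in the AGR2-high libraries and 4.72, 4.02, 3.70 and 4.31 CPM in the 4 replicate 2 libraries. ERBB3 averaged 253 ± 7.05 CPM and ERBB4 19.6 ± 0.922 CPM in the AGR2-high libraries, against 26.999 ± 2.58 CPM for ERBB3 and 0 counts for ERBB4 in the 4 replicate 2 libraries. ERBB2 averaged 159 ± 22.4 CPM in the AGR2-high libraries and 69.9 ± 9.52 CPM in the 4 replicate 2 libraries, 2.27-fold higher.

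Of 34 tumour suppressor genes, all past the filter, 2 were at least 4-fold higher (5.88%, beside 12.6% of all genes) and 6 lower (17.6%, beside 16%) in the AGR2-high libraries. MTAP, an enzyme of methionine salvage, was 0.159, 0 and 0.0494 CPM in the AGR2-high libraries and 266, 320.1, 245 and 261 CPM in the 4 replicate 2 libraries. CDKN2A, which neighbours MTAP on chromosome 9 and encodes p16 and p14ARF, was 0.265, 0.149 and 0.0989 CPM in the AGR2-high libraries and 14.1, 15.9, 11.3 and 11.2 CPM in the 4 replicate 2 libraries. CDKN2B, the next gene along, averaged 4.11 ± 0.495 CPM in the AGR2-high libraries and 3.94 ± 0.956 CPM in the 4 replicate 2 libraries, so the low level was not shared by all 3 neighbours. RUNX3 was 0 CPM in each of the AGR2-high libraries and 22.9, 20.5, 30.2 and 23.1 CPM in the 4 replicate 2 libraries. CDKN1A, an inhibitor of cyclin-dependent kinases that arrests the cell cycle, was 202, 181 and 162 CPM in the AGR2-high libraries and 110.3, 166, 82.7 and 132 CPM in the 4 replicate 2 libraries, and these values overlapped.

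Of 9 oncofetal and imprinted genes past the filter of 18, 6 were at least 4-fold lower and 0 higher in the AGR2-high libraries. HMGA2, a chromatin protein of embryonic cells, was 0 CPM in each of the AGR2-high libraries and 203, 324, 166 and 288 CPM in the 4 replicate 2 libraries. The RNA-binding protein IGF2BP2 averaged 0.337 ± 0.0531 CPM in the AGR2-high libraries and 115 ± 12.7 CPM in the 4 replicate 2 libraries, and IGF2BP3 summed to 1 count in the AGR2-high libraries and averaged 72.7 ± 26.2 CPM in the 4 replicate 2 libraries. Of 36 cancer-testis genes 6 passed, with 1 at least 4-fold higher and 5 lower. Each of the 6 passed only through the group in which it is present, and over the whole list 1 gene had more than 3 counts in an AGR2-high library and 7 in one of the 4 replicate 2 libraries. MAGEB2 was 0 CPM in each of the AGR2-high libraries and 125, 129, 131 and 124 CPM in the 4 replicate 2 libraries. MAGEA3, whose reads may be shared with near-identical copies, had 0 counts in the AGR2-high libraries and 100.2 to 114 CPM in the 4 replicate 2 libraries. CT83 was the member that was higher, at 25.1 to 33.9 CPM in the AGR2-high libraries and 0 counts in the 4 replicate 2 libraries.

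The genes the study set out to perturb were compared as regulators. Of 26 genes of NELF, P-TEFb, the super elongation complex and DOT1L, all past the filter, 2 were at least 4-fold higher (7.69%, beside 12.6% of all genes) and 4 lower (15.4%, beside 16%) in the AGR2-high libraries, so neither share was above that of all genes. MYC was 32.4, 29.01 and 26.7 CPM in the AGR2-high libraries and 798, 633, 786 and 721 CPM in the 4 replicate 2 libraries, 25.01-fold lower. LARP7, the 7SK snRNP protein, averaged 3.99 ± 0.957 CPM in the AGR2-high libraries and 44.1 ± 4.73 CPM in the 4 replicate 2 libraries. NELFCD averaged 395 ± 30.4 CPM in the AGR2-high libraries and 78.2 ± 7.17 CPM in the 4 replicate 2 libraries, and the elongation factor ELL2 averaged 3.25 ± 0.851 CPM in the AGR2-high libraries and 53.6 ± 6.59 CPM in the 4 replicate 2 libraries. DOT1L was 67.04, 47.5 and 55.5 CPM in the AGR2-high libraries and 81.6, 93.1, 72.6 and 85.8 CPM in the 4 replicate 2 libraries. HEXIM1, the P-TEFb inhibitor, was 44.7, 43.2 and 46.5 CPM in the AGR2-high libraries and 79.9, 66.9, 75.5 and 64.6 CPM in the 4 replicate 2 libraries.

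NELFE, the target of the shRNA, checks the labels. It was 99.5, 92.9 and 81.1 CPM in the AGR2-high libraries, of which the last 2 carry the NELFE shRNA label. In the 4 replicate 2 libraries it was 75.1, 18.1, 78.6 and 20.9 CPM, low in both libraries with the shRNA label. The library labelled shNELFE_EPZ replicate 1 thus had 0.934 times the NELFE level of the library labelled shCTL_EPZ replicate 1 (95% interval 0.876 to 0.996), while the same labels in replicate 2 gave 0.266 times (0.236 to 0.300). The labels shNELFE_HMBA over shCTL_EPZ gave 0.815 times (0.763 to 0.872) in replicate 1 and 0.218 times (0.188 to 0.252) in replicate 2. The 2 AGR2-high libraries that share the NELFE shRNA label also differed, with 0.873 times (0.817 to 0.933) for shNELFE_HMBA over shNELFE_EPZ. These intervals cover counting error only, so no direction by shRNA label is read from the AGR2-high libraries. The differences between shRNA labels were far smaller there than in replicate 2. Differences between the AGR2-high libraries are given by label only.

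The label pairs that fall inside the AGR2-high set have 1 library on each side and no replicate check. Between the libraries labelled shNELFE_EPZ and shCTL_EPZ replicate 1, 141 of 13544 genes with at least 30 counts over the pair were at least 2-fold higher (1.04%) and 120 at least 2-fold lower (0.886%). In replicate 2 the same labels gave 105 genes higher (0.792%) and 179 lower (1.35%) of 13251. Between the libraries labelled shNELFE_HMBA and shNELFE_EPZ replicate 1, 142 of 13640 genes were higher (1.04%) and 89 lower (0.652%). In replicate 2 these labels gave 1228 genes higher (9.27%) and 1900 lower (14.3%) of 13241. Between the libraries labelled shNELFE_HMBA and shCTL_EPZ, 192 genes (1.41%) were higher and 78 (0.575%) lower in replicate 1, and 1246 (9.44%) were higher and 1988 (15.1%) lower in replicate 2. The count with HMBA in the label was therefore of the size of the shRNA pair in the AGR2-high libraries, and much larger in replicate 2.

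Of the genes measured in both replicates, 20 were at least 2-fold higher for HMBA in both, which is 23.5% of the 85 in replicate 1 and 2.12% of the 943 in replicate 2. The 85 are 0.716% and the 943 are 7.95% of the 11869 genes measured in both. At least 2-fold lower in both were 7 genes, 22.6% of 31 in replicate 1 and 0.431% of 1623 in replicate 2. The 31 are 0.261% and the 1623 are 13.7% of the 11869. HEXIM1, a gene that HMBA is known to raise, was 46.5 CPM in the library labelled shNELFE_HMBA and 43.2 CPM in that labelled shNELFE_EPZ of replicate 1, a ratio of 1.08 (0.980 to 1.18). In replicate 2 HEXIM1 was 374 CPM with HMBA and 64.6 CPM with EPZ-5676, a ratio of 5.79 (5.42 to 6.19). MYC had a ratio of 0.922 (0.819 to 1.04) for the same labels in replicate 1 and 0.0954 (0.0890 to 0.102) in replicate 2. Counting noise alone gives a mean chi-square per gene of about 1. The 3 pairs of AGR2-high libraries gave 20.3, 16.2 and 25.3, and the shNELFE_EPZ and shCTL_EPZ pair of replicate 2 gave 13.1. Of the 16 libraries, 0 pairs held identical counts.

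**Figure D4:**
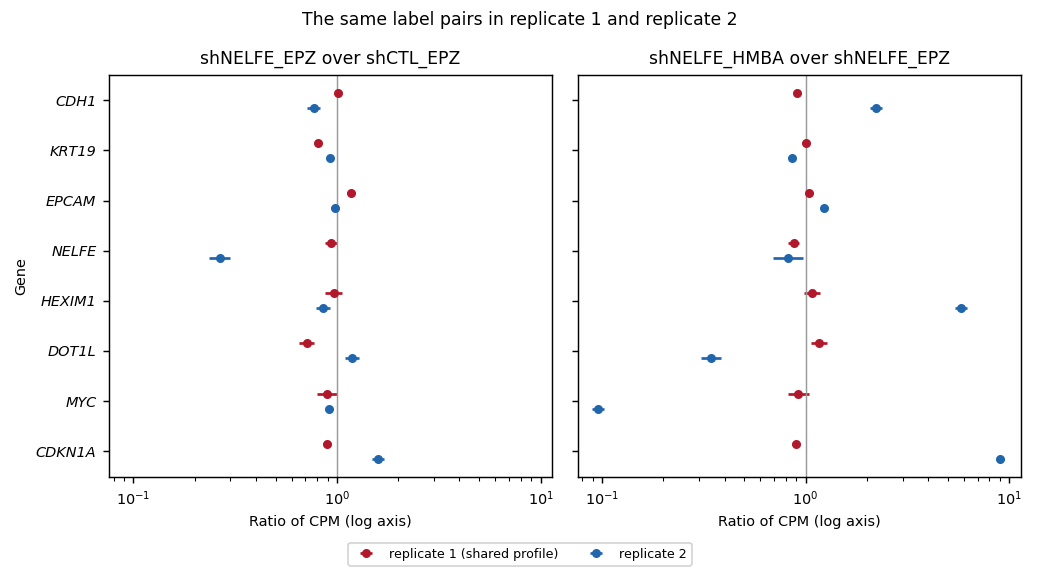
Ratio of CPM between libraries (horizontal, log axis) for 8 genes, for the labels shNELFE_EPZ over shCTL_EPZ (left) and shNELFE_HMBA over shNELFE_EPZ (right), in replicate 1 (red, AGR2-high libraries) and replicate 2 (blue); bars are 95% counting intervals. NELFE at 0.266, HEXIM1 at 5.79 and MYC at 0.0954 leave the line of equal levels in replicate 2, and the replicate 1 ratios of the same genes and labels lie between 0.873 and 1.08.

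Another pair of replicate 1 libraries, shNELFE_DMSO and shCTL_HMBA, also had CDH1, KRT19 and GATA3, and their levels are set beside those of the AGR2-high libraries without a test. CDH1 was 1574, 1591 and 1448 CPM in the AGR2-high libraries and 581 and 575 CPM in that pair, and GATA3 was 1327, 1133 and 1262 CPM in the AGR2-high libraries and 656 and 604 CPM in the pair. ESR1 was 222, 217 and 259 CPM in the AGR2-high libraries and 142 and 171 CPM in the pair. TFF1 was 3296, 3364 and 2830.1 CPM in the AGR2-high libraries and 194 and 182 CPM in the pair, AGR2 was 1473, 1790.2 and 1449 CPM and 2.76 and 2.70 CPM, and MUC5B was 979, 568 and 732 CPM and 14.3 and 13.3 CPM. PGR was 72.4, 69.98 and 84.5 CPM in the AGR2-high libraries and 5.71 and 6.70 CPM in the pair, and SOX2 was 18.1, 16.7 and 25.3 CPM in the AGR2-high libraries and 0.145 and 0.241 CPM in the pair. LAMB1 went the other way, with 0.265, 0.298 and 0.346 CPM in the AGR2-high libraries and 90.6 and 108 CPM in the pair, as did EHF, with 0 CPM in each of the AGR2-high libraries and 11.4 and 12.5 CPM in the pair. CDX2 was at 0 in both sets, and MTAP was 0.159, 0 and 0.0494 CPM in the AGR2-high libraries and 0.0484 and 0.0482 CPM in the pair.

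Differences were spread unevenly over the genome. Among protein-coding genes, the median log2 ratio of AGR2-high over replicate 2 libraries was -1.14 on chromosome 18, -1.10 on chromosome 13 and -0.99 on chromosome 4. It was 0.66 on chromosome 16 and 0.64 on chromosome 20. On chromosome 18, 30.7% of genes were at least 4-fold lower and 6.02% higher, and on chromosome 20, 9.09% were lower and 21.1% higher in the AGR2-high libraries. CDX2 and KLF5 lie on chromosome 13, the desmosomal cadherins on chromosome 18, FAT1, EREG, AREG and LARP7 on chromosome 4, CDH1 on chromosome 16, and NELFCD and TFAP2C on chromosome 20. Each of these genes went the way of its chromosome's median, but other genes of the same chromosomes went the other way. Among them were PCDH10 on chromosome 4, which was higher, and SNAI1 on chromosome 20, which was lower in the AGR2-high libraries. At least 4-fold higher were 8.72% of genes on chromosome 4 and 6.03% on chromosome 13. On chromosome 16, 7.68% were at least 4-fold lower.

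**Figure D5:**
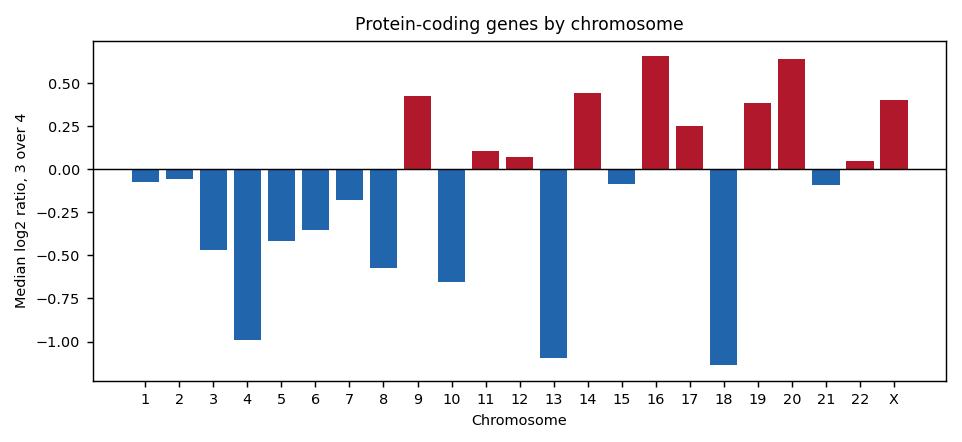
Median log2 ratio of mean CPM, AGR2-high over the 4 replicate 2 libraries (vertical), of protein-coding genes past the 1 CPM filter on each chromosome (horizontal). Red bars are above 0 and blue bars below; chromosomes 4, 13 and 18 reach -0.99, -1.10 and -1.14, and chromosomes 16 and 20 reach 0.66 and 0.64.

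Some neighbouring genes shared a direction. There were 56 runs of at least 4 adjacent measured protein-coding genes that were each at least 4-fold lower, holding 281 of the 1982 such genes (14.2%), and 22 runs that were higher, holding 112 of 1465 (7.65%). How many runs the shares of all genes alone would give was not tested. The longest lower run had 12 genes on chromosome 4, 185159665 to 189963204, and included FAT1. DSC3, DSC2 and DSG2 began a run of 7 genes on chromosome 18, 30990008 to 32131561. TES, CAV2, CAV1 and MET stood in a run of 7 genes on chromosome 7, 113116718 to 116922049, and MAGEA3 in a run of 5 genes on chromosome X, 152638183 to 152760222. The longest higher run had 10 genes of the beta protocadherin cluster on chromosome 5, 141094578 to 141227759. TFF3 and TFF1 stood in a higher run of 5 genes on chromosome 21, 42199689 to 42581440, and TBX2 ended a run of 7 genes on chromosome 17, 60043194 to 61409466. Protocadherin and histone runs are uncertain, because alpha protocadherins share exons and members of these clusters are near-identical.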

How the data were processed

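Per the labels' protocols, mRNA was captured on oligo(dT) beads and 16 libraries (8 groups of 2) were prepared with a TruSeq Stranded mRNA kit. The authors deposited 1 table of raw read counts per gene (60676 Ensembl identifiers, 60357 with a symbol), and these counts were taken unchanged. The build was hg38, and the tools listed were edgeR, HTSeq 0.6.1p1, Cufflinks 2.1.1 and STAR 2.4.0b, per the submitters' processing notes. What each tool did, the annotation release and the strand setting were not given in the sources used here, so reads of overlapping or near-identical genes may be split. Positions are those of GENCODE release 29 (58503 identifiers). Genes of the Y chromosome and XIST (511), and some other genes, are not reported here.

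Counts were scaled with edgeR 4.0.16 (TMM over all 16 libraries, R 4.3.3) and given as CPM; ratios, intervals and figures were made in Python 3.11.15 with scipy 1.17.1 and matplotlib 3.10.9. Genes with a mean of at least 1 CPM over the 7 libraries were compared. A difference was counted at a 4-fold ratio of means without overlap of single libraries. A fold against a group at 0 is a bound against 3 counts over that group. Where a group summed to 1 to 3 counts, its counts are printed in place of a fold. Pairs of single libraries were compared at 2-fold with at least 30 counts over the pair, with exact intervals at 95%. No test was made between groups, since measured values chose the libraries. The code was tested on simulated data.

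CDH1, KRT19, VIM, EPCAM, NELFE, HEXIM1, DOT1L, MYC and CDKN1A were named whatever their values. The rule added up to 4 members each way per list with the largest fold, up to 3 within 2-fold, and the 15 highest genes present only in either group; further members are named where they define a list (chosen after their values were seen). The libraries, lists and rules were chosen with earlier results of these data known. Alternatives were other scalings, filters, limits and comparison libraries, and leaving out each library.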

Additional observations from a re-analysis of the deposited data

Results flagged for a closer look

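The ratios of the genes named whatever their values were compared between replicate 1 (the AGR2-high libraries) and replicate 2. This was done for the labels shNELFE_EPZ over shCTL_EPZ and shNELFE_HMBA over shNELFE_EPZ. For 5 gene and label pairs the 2 ratios lay on opposite sides of 1 with both 95% counting intervals clear of 1. Each ratio has 1 library on each side. The difference was not tested. For shNELFE_EPZ over shCTL_EPZ, DOT1L was 0.709 in replicate 1 and 1.18 in replicate 2, and CDKN1A was 0.895 in replicate 1 and 1.59 in replicate 2. For shNELFE_HMBA over shNELFE_EPZ, CDH1 was 0.910 in replicate 1 and 2.23 in replicate 2, DOT1L was 1.17 in replicate 1 and 0.343 in replicate 2, and CDKN1A was 0.899 in replicate 1 and 9.06 in replicate 2. Outside these 5, the labels shNELFE_HMBA over shCTL_EPZ gave the same for CDH1 and CDKN1A. There CDH1 was 0.920 in replicate 1 and 1.72 in replicate 2, and CDKN1A was 0.805 in replicate 1 and 14.4 in replicate 2. The replicate 1 libraries differ from their replicate 2 namesakes in the whole profile described above, so the label and the profile cannot be told apart in these ratios.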

How the results depend on the processing

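The counts of genes at least 4-fold higher (1729) and lower (2210) and of genes present only in the AGR2-high (262) or only in the 4 replicate 2 libraries (212) stayed within 1.5 times under 3 other scalings and against 8, 2 or 9 comparison libraries; the 9, all those that do not stand apart, were chosen after seeing the data. With unscaled totals the median log2 ratio of all genes fell to -0.26 and 35.7% of 4-fold calls were higher, beside 43.9% with TMM. Without a filter 2951 genes were higher. With a mean of at least 5 CPM, 1102 were higher and 166 were present only in the AGR2-high libraries. With an 8-fold limit 976 were higher and 1298 lower, and with 10 CPM for genes on or off 168 and 133 were counted. Leaving out each of the 7 libraries in turn gave 1576 to 1803 higher, 2137 to 2375 lower, 266 to 273 present only in the AGR2-high and 217 to 227 only in the 4 replicate 2 libraries. With at least 100 counts over a pair, 64 genes differed 2-fold for shNELFE_EPZ over shCTL_EPZ in replicate 1 (261 in the main count) and 94 in replicate 2 (284). For shNELFE_HMBA over shNELFE_EPZ, 47 differed in replicate 1 (231) and 2396 in replicate 2 (3128). Except in that last pair, most of the 2-fold genes thus had fewer than 100 counts over the pair. These limits test fewer genes. No paired analysis was possible because the AGR2-high libraries are all numbered 1, the libraries set against them are all numbered 2, and no test was made.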
